A study of Mus musculus with 6 samples.

Results

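The genes described here are 51 genes of mitosis and of the G2/M transition, the step at which a cell that has copied its DNA starts to divide. They were chosen by symbol from a list of names, all 51 were found among the 46095 gene symbols of the count table, and all 51 passed the filter on low counts that left 14120 genes for testing. BV2 is a microglial line that was immortalized from mouse. Its RNA was sequenced in the untreated state (CON group, 3 libraries) and after 6 h with the recombinant protein sTREM-1, the soluble form of the receptor TREM-1, at 1 μg/mL (sTREM-1 group, 3 libraries). All libraries come from 1 cell line grown in 6-well plates, so the replicates share that line and are not animals, and no genetic change separates the groups. The labels give no vehicle for the CON group and no batch.

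Mitotic genes are switched on late in the cell cycle. Cyclins A and B with the kinase CDK1 drive entry into mitosis, condensin folds the chromosomes, the spindle and its motors pull them apart, the checkpoint holds the cell until every kinetochore is attached, and the anaphase-promoting complex (APC/C) then degrades cyclin B and securin. Most of these genes are transcribed through a shared promoter type with CCAAT boxes, bound by NF-Y, and a cell cycle genes homology region (CHR), bound by the DREAM and MYBL2-MuvB-FOXM1 complexes, and their RNAs are therefore widely read as a proliferation signature.

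The promoters below show these elements in 6 of the genes that the results turn on. Ccnb2, Bub1 and Espl1 had the smallest p-value with an available promoter in their role groups, Cenpf was added as the kinetochore gene of largest rise, and Cdca8 and Ube2c were added after their values were seen, because they hold the same elements but did not pass the test. The sequences are RefSeq promoters on GRCm38.p6, 5′ to 3′ on the strand of the gene. The capitals mark CCAAT (or ATTGG, its reverse complement) and TTTGAA (or TTCAAA, its reverse complement). They cover chr9:70421545-70421654 on the minus strand for Ccnb2, chr2:127831860-127831959 on the minus strand for Bub1, chr15:102296193-102296292 on the plus strand for Espl1, chr1:189688079-189688226 on the minus strand for Cenpf, chr4:124936894-124937017 on the minus strand for Cdca8 and chr2:164769829-164769909 on the plus strand for Ube2c.
Ccnb2: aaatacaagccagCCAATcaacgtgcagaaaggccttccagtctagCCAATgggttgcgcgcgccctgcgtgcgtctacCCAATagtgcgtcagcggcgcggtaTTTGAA
Bub1: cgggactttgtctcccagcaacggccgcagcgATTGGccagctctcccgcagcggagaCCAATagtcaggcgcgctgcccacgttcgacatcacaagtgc
Espl1: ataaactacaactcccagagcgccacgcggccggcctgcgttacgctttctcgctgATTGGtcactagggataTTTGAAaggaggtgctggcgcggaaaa
Cenpf: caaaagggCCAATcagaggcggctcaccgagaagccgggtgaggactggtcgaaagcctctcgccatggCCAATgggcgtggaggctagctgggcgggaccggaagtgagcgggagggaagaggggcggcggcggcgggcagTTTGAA
Cdca8: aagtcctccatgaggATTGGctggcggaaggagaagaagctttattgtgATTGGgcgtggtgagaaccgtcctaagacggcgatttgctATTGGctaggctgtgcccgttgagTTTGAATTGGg
Ube2c: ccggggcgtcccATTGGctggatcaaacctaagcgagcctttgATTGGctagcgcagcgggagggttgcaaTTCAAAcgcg
In Ccnb2, 3 CCAAT boxes on the coding strand precede a CHR that starts at base 5 of the transcript. Bub1 has a pair of CCAAT boxes on opposite strands and no CHR in the window. In Cdca8 the CHR and the last reversed CCAAT box overlap by 1 base.

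RefSeq windows from 250 bases before to 50 bases after the start were at hand for 43 of the 51 genes. A CCAAT box on either strand was present in 32 of them (74.4%), against 43.0% of the 9714 tested genes with a window and 41.1% of all 27025 genes with a window. The CHR, searched as TTTGAA on either strand, was present in 32 (74.4%), against 14.8% of tested genes and 20.2% of all genes. Both elements together were found in 28 mitotic genes (65.1%), against 6.26% of tested genes and 7.97% of all genes. An E2F site, searched as TTTGGCGC or TTTCCCGC on either strand, was found in 3 mitotic genes (6.98%), namely Kif15, Ncapd2 and Ncapg, against 3.36% of tested genes. A match is a run of letters and not a shown binding site.

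**Figure D1:**
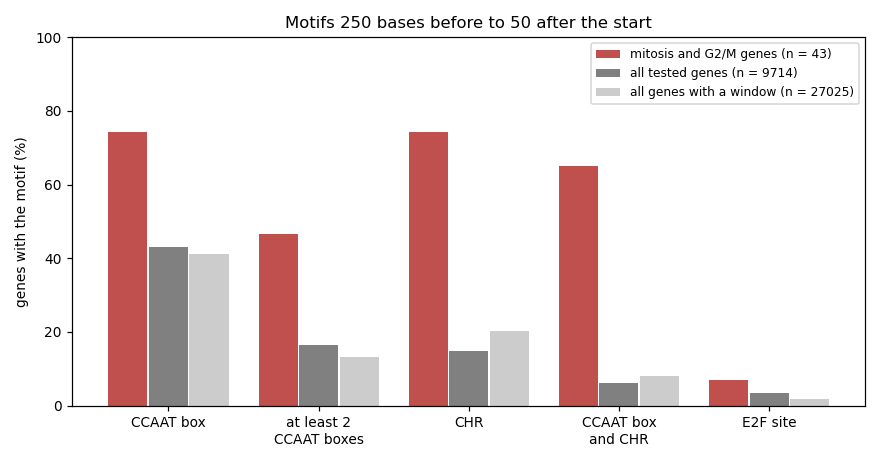
Share of genes (%, y axis) with each promoter motif in the window from 250 bases before to 50 bases after the start, for the 43 mitosis and G2/M genes with a window (red), the 9714 tested genes (dark grey) and all 27025 genes with a window (light grey). Both elements together stand at 65.1% in the mitotic genes and at 6.26% in the tested genes.

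After 6 h of sTREM-1 the mitotic genes were higher almost as a block, by modest amounts. Compared with the CON group, 42 of the 51 genes rose at an adjusted p-value under 0.05, where 16.5% of all tested genes rose, and 1 gene (Smc4) fell, where 14.1% of all tested genes fell. Calls in either direction made up 30.5% of all tested genes. The remaining 8 genes, Cdc25c, Birc5, Cdca8, Mad2l1, Cenpa, Ndc80, Ube2c and Pttg1, did not pass the test. The fitted log2 fold change was positive for 50 of the 51 genes. Its median was 0.29 with quartiles of 0.16 and 0.42, while over all tested genes the median was -0.0017 with quartiles of -0.13 and 0.13. A rise of at least 1.2-fold was called for 28 mitotic genes, where 5.92% of all tested genes had one, while 17 reached 1.3-fold and 1 (Ccnb2) reached 1.5-fold. The mitotic genes were well expressed, and among the 9383 genes with a mean level at or above that of the lowest of them, 23% rose.

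The libraries of each group lay close together. All 3 sTREM-1 libraries were above all 3 CON libraries for 44 of the 51 genes, where 21.3% of all tested genes showed this order, and below them for Smc4 alone, where 19.4% of all tested genes showed that order. The median of the 51 genes, as log2 of a library's level over the CON mean, was 0.29, 0.29 and 0.26 in the sTREM-1 libraries and between -0.0048 and 0.0042 in the CON libraries. Summed over the 51 genes, the level was 3304, 3310.5 and 3305.5 CPM (counts scaled to a common library size) in the CON libraries and 4042, 4070.9 and 3976 CPM in the sTREM-1 libraries. RNA of bulk cultures was measured, so a larger share of cells in G2 and mitosis and more of these RNAs per cell cannot be told apart.

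**Figure D2:**
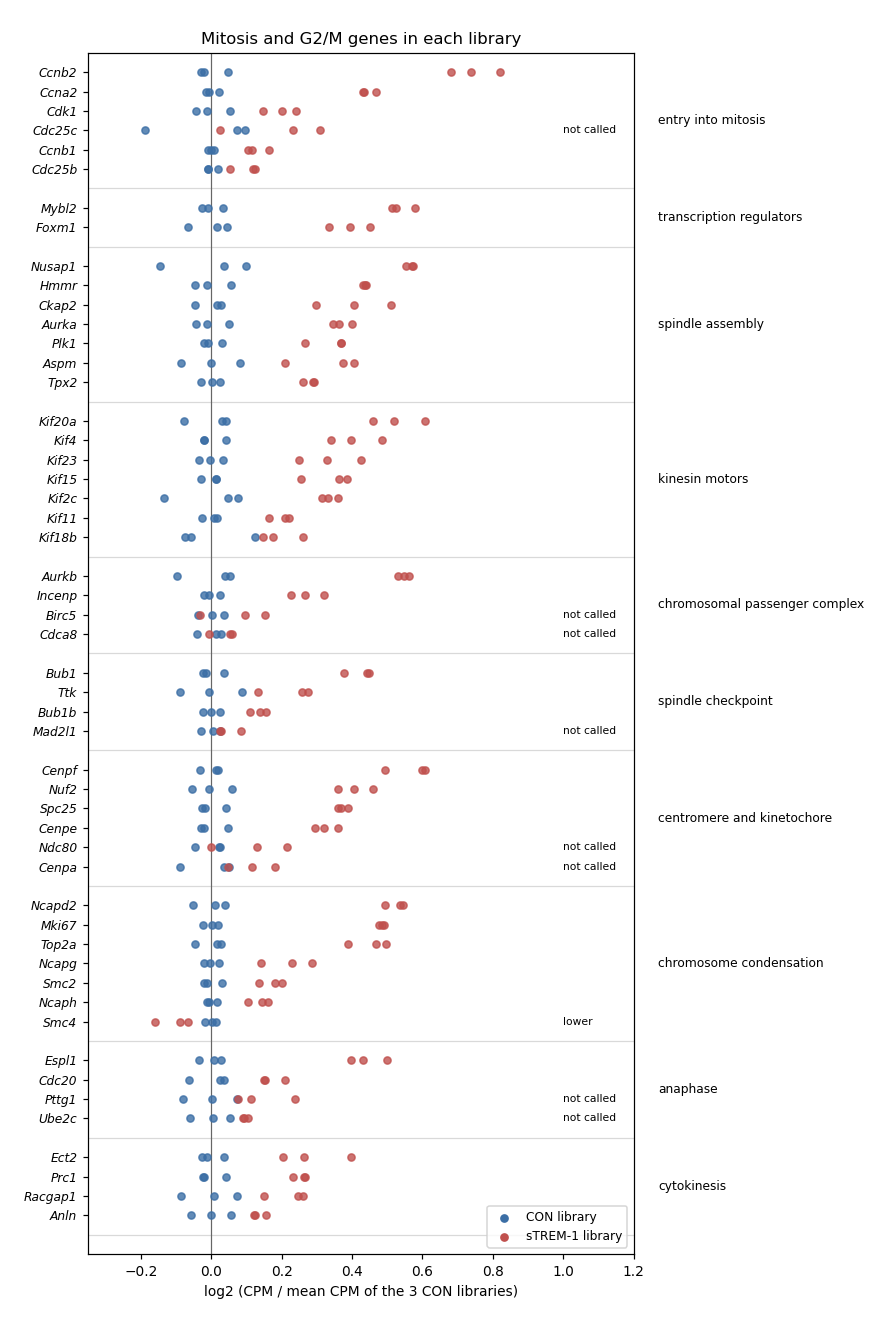
Level of each of the 51 mitosis and G2/M genes in each library, as log2 of its CPM over the mean CPM of the 3 CON libraries (x axis), with CON libraries in blue and sTREM-1 libraries in red and the genes grouped by role. Red points lie to the right of all blue points in 44 genes, and the 8 genes that did not pass the test and the 1 that fell are marked.

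The CON libraries held 40663981 to 40779439 counts and the sTREM-1 libraries 40070633 to 45877107 counts, and single mitotic genes had 272 to 16023 counts in a library. Genes that define microglia and macrophages such as Csf1r, Itgam, Cd68, Ptprc, Tyrobp and Spi1 were present, while Aif1 was at 0 in every library and Tmem119, P2ry12 and Cx3cr1 lay between 0.563 and 2.18 CPM. The 10 microglia and macrophage markers summed to 2270 to 2300 CPM in the CON group and 2500 to 2580 CPM in the sTREM-1 group. Most of this difference was Csf1r, with a mean of 521 CPM in the CON group and 753 CPM in the sTREM-1 group. Cd68 (605 and 589 CPM) and Tyrobp (300 and 293 CPM) were slightly lower and not called. Of the 9 markers tested, 6 had a positive log2 fold change. Among them 3 (Csf1r, Ptprc and Cx3cr1) were called higher, where 16.5% of all tested genes rose. Astrocyte, neuron and fibroblast markers each summed to at most 0.561 CPM in a library. Mitochondrially encoded genes took 1.57% to 1.65% of the counts in the CON group and 1.73% to 1.74% in the sTREM-1 group, and the part of these differences in the results was not tested.

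Of the 6 genes of entry into mitosis, 5 rose (median log2 fold change 0.19). Ccnb2 (chr9:70407692-70421547 on GRCm38), which encodes cyclin B2, had the largest rise of the 51 genes, with 17.1, 17.2 and 18.1 CPM in the CON libraries and 29.1, 30.8 and 28.0 CPM in the sTREM-1 libraries. This is a log2 fold change of 0.75 ± 0.06 (standard error, n = 3 libraries per group, edgeR's quasi-likelihood test, adjusted p = 9.81e-11), and the groups did not come close to each other. Ccna2 (cyclin A2) stood at 76.8, 78.4 and 76.5 CPM against 107, 104 and 104 CPM, a log2 fold change of 0.44 ± 0.03 (adjusted p = 7.46e-12). The main mitotic cyclin gene, Ccnb1, had a smaller rise, from a mean of 115 to 126 CPM (0.13 ± 0.03 on the log2 scale, adjusted p = 0.0015). Ccnb2 RNA relative to Ccnb1 RNA went from 0.152 ± 0.00534 (SD) to 0.233 ± 0.00759 as a ratio of CPM, with no overlap between the groups. The pair was chosen after the values were seen, and its ratio was not tested.

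The kinase that these cyclins activate and the phosphatases that release it had small differences. Cdk1 rose from a mean of 50.7 to 58.1 CPM (log2 fold change 0.20 ± 0.04, adjusted p = 0.000593). Cdc25b, a phosphatase that removes the inhibitory phosphates from CDK1, rose from 71.0 to 76.1 CPM (0.10 ± 0.04, adjusted p = 0.0391), a call that was lost in 9 of 15 other fits, among them DESeq2 (adjusted p = 0.0557) and the fits without CON replicate 1, 2 or 3 or sTREM-1 replicate 1 or 3 (adjusted p from 0.0601 to 0.152). Cdc25c, its relative, had the lowest CPM of the 51 genes (per kb of transcript Aspm was lower) and stood at 6.64, 8.09 and 7.96 CPM against 7.70, 8.89 and 9.38 CPM. These groups overlap, and the difference did not pass the test (0.19 ± 0.11, adjusted p = 0.194).

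Both transcription factors of the G2/M programme rose. Mybl2 (B-MYB), which joins the MuvB core in S phase, had 36.2, 36.7 and 37.8 CPM in the CON libraries and 52.7, 55.1 and 53.1 CPM in the sTREM-1 libraries, a log2 fold change of 0.54 ± 0.04 (adjusted p = 5.16e-11). Foxm1, which the complex recruits in G2, had 36.1, 38.2 and 39.0 CPM against 47.7, 49.7 and 51.7 CPM, a log2 fold change of 0.39 ± 0.05 (adjusted p = 9.28e-08). For both genes every sTREM-1 library lay above every CON library. The Mybl2 window held neither a CCAAT box nor a CHR.

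All 7 genes of spindle assembly rose, with a median log2 fold change of 0.37. Hmmr, a microtubule-associated protein of the spindle pole, had 59.5, 61.0 and 63.8 CPM in the CON libraries and 83.2, 83.3 and 82.8 CPM in the sTREM-1 libraries (log2 fold change 0.44 ± 0.04, adjusted p = 1.41e-10). Tpx2, which activates Aurora A and nucleates spindle microtubules, had 181, 184 and 177 CPM against 221, 221 and 216 CPM (0.28 ± 0.03, adjusted p = 1.34e-09). Neither gene's groups overlap. Nusap1, which bundles microtubules near chromosomes, had the largest rise of the group, at 0.57 ± 0.06. Aurka (Aurora A) rose by 0.37 ± 0.04 and Plk1 (Polo-like kinase 1) by 0.34 ± 0.06. Ckap2, which stabilizes microtubules, and Aspm, a spindle pole protein, rose by 0.41 ± 0.07 and 0.33 ± 0.05.

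All 7 kinesin genes rose too, with a median log2 fold change of 0.34. Kif20a, a motor of the central spindle, had 27.4, 25.4 and 27.6 CPM against 36.8, 38.4 and 40.8 CPM (0.53 ± 0.05, adjusted p = 4.45e-09). Kif4, a motor that binds chromosome arms, had 40.1, 38.4 and 38.4 CPM against 54.6, 51.4 and 49.4 CPM (0.41 ± 0.05, adjusted p = 3.65e-08). The groups are apart for both genes. Kif23 (the motor of centralspindlin), Kif15 (a spindle motor) and Kif2c (which removes tubulin from microtubule ends) rose by similar amounts, with log2 fold changes of 0.34 ± 0.05, 0.34 ± 0.04 and 0.34 ± 0.05. Kif11 (Eg5), which pushes the spindle poles apart and is the most abundant of the kinesins per CPM, rose by 0.20 ± 0.03. Kif18b, a motor that shortens astral microtubules, rose by 0.19 ± 0.07 with an adjusted p of 0.0445, and this call was lost in 11 of 15 other fits, among them those without CON replicate 2 or 3 or any single sTREM-1 replicate (adjusted p from 0.0555 to 0.18).

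Of the 4 subunits of the chromosomal passenger complex, which corrects faulty attachments, 2 rose. Aurkb, its kinase Aurora B, had 17.2, 15.6 and 17.3 CPM in the CON libraries and 24.6, 24.1 and 24.4 CPM in the sTREM-1 libraries (log2 fold change 0.55 ± 0.07, adjusted p = 1.58e-07). Incenp, the scaffold that activates the kinase, had 60.6, 59.3 and 58.6 CPM against 69.6, 71.5 and 74.2 CPM (0.27 ± 0.04, adjusted p = 2.22e-06). The sTREM-1 libraries were above the CON libraries for both.

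The other two subunits place the complex on the centromere, and neither passed the test. Birc5 (survivin) had 40.05, 41.2 and 42.1 CPM against 45.7, 40.2 and 44.0 CPM (0.07 ± 0.05, adjusted p = 0.279). Cdca8 (borealin) had 68.0, 65.5 and 68.7 CPM against 70.0, 70.2 and 67.2 CPM (0.04 ± 0.04, adjusted p = 0.524). The groups overlap for both genes. As a ratio of CPM within a library, Aurkb over Cdca8 was 0.248 ± 0.00827 (SD) in the CON group and 0.353 ± 0.00999 in the sTREM-1 group, a change of 1.43 times with no overlap, whereas Birc5 over Cdca8 was 0.61 ± 0.02 and 0.627 ± 0.047 and did overlap. Such ratios cancel any scaling of the libraries, but these pairs too were chosen after the values were seen and carry no test.

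Of the 4 genes of the spindle checkpoint, 3 rose. Bub1, a kinase that recruits checkpoint proteins to kinetochores, had 81.8, 84.8 and 81.4 CPM against 107, 113 and 112 CPM (log2 fold change 0.42 ± 0.03, adjusted p = 3.08e-11). Bub1b (BubR1), a part of the mitotic checkpoint complex, had 91.5, 94.6 and 93.0 CPM against 102, 100.3 and 104 CPM (0.13 ± 0.03, adjusted p = 0.00186). The groups are apart for both genes, with a wider gap for Bub1. Ttk (MPS1), the kinase that starts checkpoint signalling, rose by 0.22 ± 0.06, a call that was lost without CON replicate 1 (adjusted p = 0.0561). Mad2l1 (MAD2), the protein that inhibits CDC20, had 44.5, 42.8 and 43.8 CPM against 46.4, 44.5 and 44.6 CPM, with overlap of the groups and no call (0.05 ± 0.04, adjusted p = 0.471). The ratio of Bub1 to Mad2l1 was 1.89 ± 0.0774 (SD) in the CON group and 2.46 ± 0.122 in the sTREM-1 group. This pair was also chosen after the values were seen, and its ratio was not tested.

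Among the 6 centromere and kinetochore genes 4 rose. Cenpf (chr1:189640606-189688086), a large protein of the outer kinetochore, had 103, 99.3 and 102 CPM in the CON libraries and 155, 154 and 143 CPM in the sTREM-1 libraries, a log2 fold change of 0.57 ± 0.03 (adjusted p = 3.37e-14) that ranked 35 of 14120 genes by p-value. Cenpe, the kinetochore kinesin that brings chromosomes to the spindle equator, had 107, 107 and 113 CPM against 136, 139.9 and 134 CPM (0.33 ± 0.03, adjusted p = 1.73e-09). Neither gene's groups overlap. Cenpa, the histone H3 variant that marks the centromere, had 21.83, 20.02 and 22.04 CPM against 23.07, 24.14 and 22.03 CPM, with overlap and no call (0.12 ± 0.07, adjusted p = 0.196).

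The NDC80 complex attaches microtubules to the kinetochore, and 2 of its 3 subunits among the genes described here rose. A further subunit, Spc24, is counted with the further mitotic genes below and was not called (log2 fold change 0.29 ± 0.14, adjusted p = 0.113). The log2 fold changes of Nuf2 and Spc25 were 0.41 ± 0.05 and 0.37 ± 0.06 (adjusted p = 1.17e-07 and 5.01e-06). Their partner Ndc80 had 49.8, 49.9 and 47.5 CPM against 53.7, 57.0 and 49.0 CPM (0.12 ± 0.05, adjusted p = 0.0601). The third sTREM-1 library fell within the CON range, and without it Ndc80 passed the test (adjusted p = 0.00808). The ratio of Nuf2 to Ndc80 was 0.645 ± 0.0143 (SD) in the CON group and 0.792 ± 0.0342 in the sTREM-1 group, with no overlap. It was not tested either, and the pair was chosen after the values were seen.

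Of the 7 chromosome condensation genes 6 rose and 1 fell. Mki67 (chr7:135689784-135716361), which encodes the Ki-67 coat of mitotic chromosomes and is the usual proliferation marker, had 190.1, 194 and 196 CPM in the CON libraries and 270.2, 269 and 271 CPM in the sTREM-1 libraries. Its log2 fold change was 0.48 ± 0.03 (adjusted p = 4.21e-15), and its p-value ranked 23 of 14120 genes. Top2a, the topoisomerase that untangles sister chromatids and the gene of highest mean CPM over all 6 libraries among the 51 (in the CON group Smc4 was higher), had 259, 257 and 246 CPM against 351, 358 and 332 CPM (0.45 ± 0.03, adjusted p = 1.3e-13). For both genes the groups are wide apart.

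Condensin I is built of the ATPases SMC2 and SMC4 and the subunits encoded by Ncapd2, Ncapg and Ncaph. Ncapd2, whose values were added after they were seen, had 58.0, 60.6 and 61.8 CPM against 84.7, 87.8 and 87.2 CPM, a log2 fold change of 0.52 ± 0.04 (adjusted p = 2.79e-12). Ncapg, Smc2 and Ncaph rose by 0.22 ± 0.04, 0.17 ± 0.03 and 0.14 ± 0.04. Smc4 (chr3:69004738-69034623) had 257, 260.0 and 262 CPM against 244, 248 and 232 CPM. It thus lay lower in every sTREM-1 library, with a log2 fold change of -0.10 ± 0.03 (adjusted p = 0.00366), and it was called lower in each of the 15 other fits. It is the gene of the complex with the highest level per kb of transcript, at 60.2 CPM per kb in the CON group and 56.0 in the sTREM-1 group. The ratio of Ncapd2 to Smc4 went from 0.232 ± 0.005 (SD) to 0.358 ± 0.0149, or 1.55 times, and those of Ncapg, Smc2 and Ncaph to Smc4 went up 1.25, 1.21 and 1.18 times, each with no overlap between the groups. These pairs were chosen after the values were seen, with the gene that fell as the denominator, so their direction was set by that choice and carries no test.

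**Figure D3:**
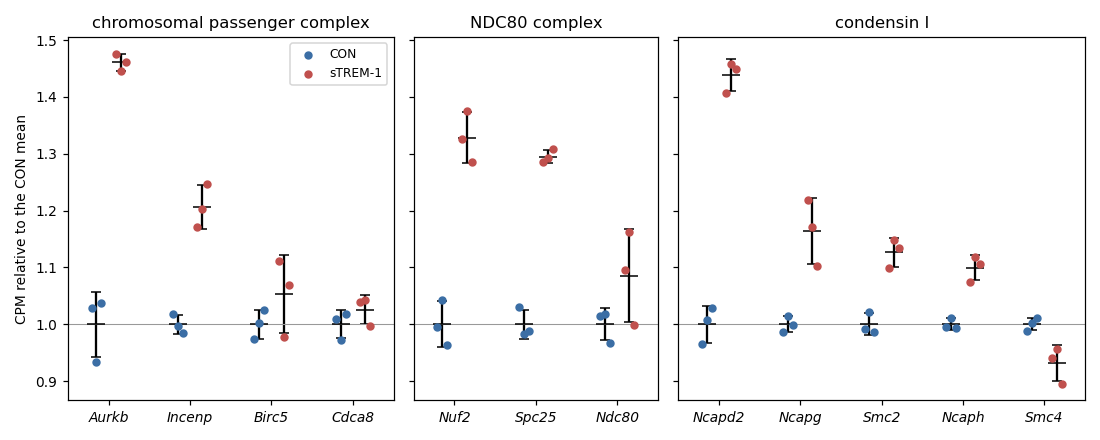
CPM of each subunit relative to its CON mean (y axis) in the chromosomal passenger complex, the NDC80 complex (without Spc24) and condensin I. Each library is 1 point (CON blue, sTREM-1 red), with the mean as a horizontal bar and the SD as the error bar. Birc5, Cdca8, Ndc80 and Smc4, which were not called or fell, have every library below 1.2. So do Smc2 and Ncaph of condensin I, which were called higher. Aurkb, Nuf2 and Ncapd2, a partner in each complex, have every sTREM-1 library above 1.2.

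Of the 4 anaphase genes 2 rose. Espl1 (separase), the protease that cuts cohesin, had 48.6, 50.1 and 50.8 CPM against 65.7, 67.2 and 70.5 CPM (log2 fold change 0.44 ± 0.04, adjusted p = 6.67e-10). Cdc20, the activator of the APC/C, had 48.8, 45.8 and 49.1 CPM against 55.4, 53.2 and 53.2 CPM (0.17 ± 0.04, adjusted p = 0.00262). Both have groups that do not overlap.

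Pttg1 and Ube2c did not pass the test, although their groups did not overlap either. Pttg1 (securin), the inhibitor of separase, had 27.9, 26.4 and 29.39 CPM against 32.9, 30.2 and 29.44 CPM (0.15 ± 0.06, adjusted p = 0.0562). Its highest CON library and its lowest sTREM-1 library were thus nearly equal. Ube2c, the E2 enzyme of the APC/C, had 68.2, 65.9 and 62.9 CPM against 70.1, 70.7 and 70.0 CPM (0.10 ± 0.04, adjusted p = 0.058). Ube2c had the highest level per kb of transcript of the 51 genes, at 67.9 CPM per kb in the CON group and 72.6 in the sTREM-1 group. With the replicate number as a block, Pttg1, Ube2c and Ndc80 were called higher (adjusted p = 0.041, 0.0439 and 0.0292). Pttg1 was also called without CON replicate 3 (adjusted p = 0.0391) or sTREM-1 replicate 3 (adjusted p = 0.0411), and Ube2c without CON replicate 1 (adjusted p = 0.0331).

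All 4 cytokinesis genes rose, with a median log2 fold change of 0.24. Prc1, which bundles the microtubules of the central spindle, had 75.8, 79.1 and 75.6 CPM against 92.5, 90.3 and 92.3 CPM (0.25 ± 0.03, adjusted p = 1e-06). Ect2, the exchange factor that activates RhoA at the cleavage furrow, had 48.5, 46.4 and 46.8 CPM against 56.7, 62.2 and 54.5 CPM (0.29 ± 0.05, adjusted p = 1.09e-05). The groups are apart for both genes. Racgap1, the second subunit of centralspindlin, rose by 0.22 ± 0.04 and Anln (anillin), a scaffold of the contractile ring, by 0.13 ± 0.04 (adjusted p = 0.0214), with the call for Anln lost in 4 of 15 other fits, among them those without CON replicate 1 or 3 or sTREM-1 replicate 2 (adjusted p from 0.0558 to 0.12).

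Most of the 8 genes that were not called had short transcripts, with Mad2l1 (7557 bases) as the exception. Their median transcript length was 1546 bases, against 3409 bases for the 42 genes that rose, and 7 of the 8 were shorter than the median of the 51 genes. Over the 51 genes the Spearman correlation of log2 fold change with transcript length was 0.241, and over 12813 tested genes with a length it was 0.0127. After correction for GC content and length, chosen after seeing the data, 43 of the 51 genes rose, and Pttg1, Ube2c and Ndc80 passed the test while Cdc25b and Kif18b did not. Among the genes with a promoter window, both a CCAAT box and a CHR were present in 25 of the 36 that rose (69.4%) and in 3 of the 7 not called (42.9%), namely Cdca8, Cenpa and Ube2c. The windows of Birc5, Mad2l1 and Pttg1 held neither motif, as did those of Mybl2, Ncaph, Nuf2 and Nusap1, which rose. For some genes, among them Mad2l1 and Pttg1, GENCODE places the start elsewhere than RefSeq, so the motifs found depend on the start used.

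Exons of 12 of the 51 genes overlap a gene on the opposite strand in GENCODE M21, among them Ccna2 with Exosc9 (510 bases), Kif20a with Cdc23 (1271 bases), Prc1 with Rccd1 (911 bases), Ube2c with Tnnc2 (592 bases) and Cdca8 with 9930104L06Rik (232 bases). Whether counting used the strand is not given in the sources used here, so reads of such pairs may have been shared. Of the 12 genes 9 rose, and of the 39 without such an overlap 33 rose. Foxm1, Ncapd2 and Top2a overlap a gene on the same strand, and their counts carry the same uncertainty.

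Genes of mitosis outside the 51 moved the same way in part. Of 76 further mitotic genes, 44 rose, 3 fell and 29 were not called. The share that rose was 57.9%, while 16.5% of all tested genes rose and 14.1% fell. The median log2 fold change of the 76 genes was 0.23. The smallest p-values belonged to Iqgap3, a scaffold of proliferating cells (0.65 ± 0.04, adjusted p = 2.56e-13), Ncaph2, a condensin II subunit (0.38 ± 0.04, adjusted p = 4.57e-10), and Cdca3, a mitotic entry factor (0.53 ± 0.05, adjusted p = 1.8e-09). The 3 that fell were Cenpq, a subunit of the inner kinetochore (-0.24 ± 0.04), Cdc25a, the CDC25 phosphatase of the G1/S transition (-0.20 ± 0.05), and Zwilch, a subunit of the RZZ checkpoint complex (-0.16 ± 0.04).

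The counts for the other groups of genes are set against the 16.5% of all tested genes that rose and the 14.1% that fell. Of 17 subunits and regulators of the APC/C, which degrades mitotic proteins, 4 rose (23.5%, where 23% of the genes at or above the lowest level of the 51 rose) and 4 fell (median 0.05), with the smallest p-values in Anapc1 (0.20 ± 0.03), Cdc27 (-0.17 ± 0.03) and Anapc5 (0.17 ± 0.03). The other genes that fell were Anapc10, Anapc15 and Anapc16, by -0.15, -0.21 and -0.12 on the log2 scale. Of 12 genes of cohesin and its regulators 6 rose (median 0.07), led by Smc1a (0.18 ± 0.03), Esco2 (0.42 ± 0.08) and Rad21 (0.11 ± 0.03).

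Of 15 genes of DREAM, MuvB and NF-Y, the regulators that bind the CHR and CCAAT elements, 5 rose and 2 fell (median 0.03), and the share that fell is near that over all tested genes. The repressive pocket protein gene Rbl2 (p130) rose by 0.31 ± 0.05 and Tfdp2, a partner of E2F, by 0.33 ± 0.06. The genes that fell encode subunits of NF-Y, the factor that binds CCAAT boxes. Nfyb had 32.6, 34.1 and 33.4 CPM against 26.1, 27.3 and 28.1 CPM (-0.30 ± 0.05, adjusted p = 5.63e-05), and Nfya had 149, 149 and 153 CPM against 130.1, 136 and 139 CPM (-0.15 ± 0.03, adjusted p = 0.000193). Both were lower in every sTREM-1 library. For Nfyc, which encodes a further NF-Y subunit, the groups overlapped and the gene was not called (0.01 ± 0.05, adjusted p = 0.926).

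Many S-phase genes rose too. Of 51 S-phase genes 36 rose and 1 (Orc1, -0.24 ± 0.09) fell, with a median of 0.23, led by Mcm6 (0.45 ± 0.03), a subunit of the replicative helicase, Lig1 (0.53 ± 0.04), the replicative DNA ligase, and Rrm1 (0.41 ± 0.03), a subunit of ribonucleotide reductase. Of 14 G1 cyclins, kinases and inhibitors 5 rose and 3 fell, and a difference from the shares over all tested genes was not tested. Ccnd1 (cyclin D1) fell from 126, 128 and 126 CPM to 101, 97.5 and 93.9 CPM (-0.38 ± 0.03, adjusted p = 1.14e-10), and Ccnd2 and Cdk6 fell by 0.24 and 0.10 on the log2 scale, while Ccnd3 rose by 0.28 ± 0.04. Whether these groups of genes differed from the 51 mitotic genes was not tested.

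**Figure D4:**
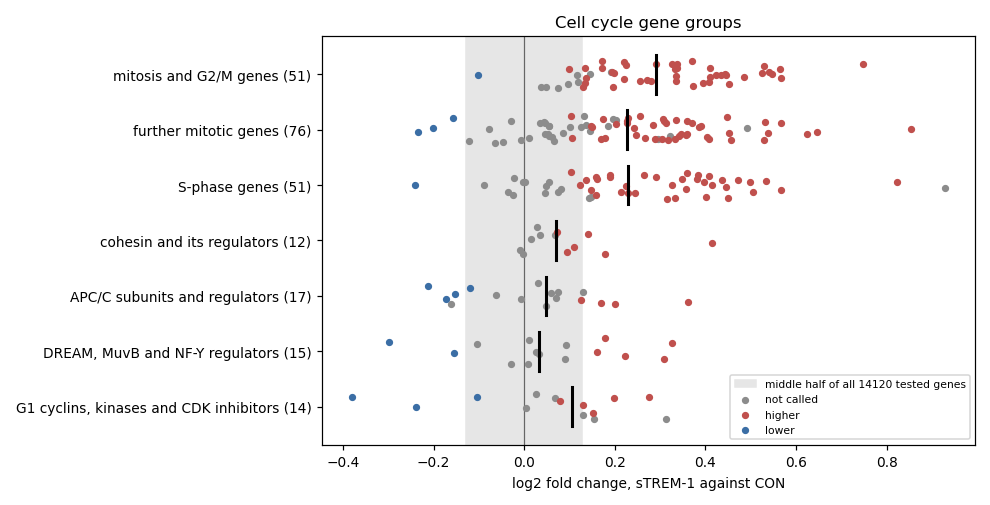
Log2 fold change of each gene, sTREM-1 against CON (x axis), for the 51 mitosis and G2/M genes and 6 further groups of cell cycle genes, with genes called higher in red, lower in blue and not called in grey, the median as a black bar and the range between the quartiles of all 14120 tested genes as a grey band. The medians are 0.29 for the mitosis and G2/M genes and 0.23 for further mitotic and for S-phase genes, and 0.03 to 0.10 for the other groups.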

How the data were processed

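RNA of BV2 cells was sequenced in 3 CON and 3 sTREM-1 libraries. The table the authors deposited holds raw whole-number counts for each gene symbol. Their methods name FastQC, RSEM, FPKM values and edgeR, and the submitters' processing notes name HISAT2 2.0.4 and the human builds hg19 and GRCh38, although the symbols are those of mouse. The build, annotation and strand setting behind the counts are not given in the sources used here. The study's text states another number of replicates per group than the labels, which state the 3 used here. The labels do not say that libraries come from separate experiments. The p-values thus set each group difference against the spread between these libraries, which may be technical.

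Low genes were removed by filterByExpr at a minimum count of 10, and TMM set the scaling. The quasi-likelihood test was run over the 14120 genes left (edgeR 4.0.16, R 4.3.3) on the group alone. A gene counts as called when its p-value, adjusted over all tested genes by the Benjamini-Hochberg method, is under 0.05. CPM values are TMM-scaled, log2 fold changes are those of the fit, and their standard errors were derived from the F statistic. A prior count of 2 was used only for the log2 levels behind the replicate correlations and the GC and length correction. The biological coefficient of variation was 3.99%. On simulated counts the p-values were calibrated, but the share of false calls exceeded the nominal share on average, in some simulations clearly. Calls near the threshold are therefore taken as less certain. The simulations changed far fewer genes than were called here, so their share of false calls need not hold for these data. No pair of libraries agreed within sampling noise.

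The members, lists and tests were chosen with earlier results of these data known, so no list was given a test of its own. Full values are given for the 2 genes of smallest p-value in each role group, every gene called lower or not called, and the genes of highest and lowest level. Of each other list the 3 genes of smallest p-value and the called genes that moved against its majority are named. One marker list is not reported here. Genes added to these are said to have been chosen after their values were seen. Transcript lengths and levels per kb used 1 GENCODE M21 transcript per gene. Another choice of transcript would change them and the comparisons by length. Promoters are those of RefSeq on GRCm38.p6. No promoter was at hand for Aurkb, Incenp, Foxm1, Ccna2, Smc4, Kif20a, Tpx2 and Cdc25c. Alternatives were RLE, upper-quartile and total-count scaling, other filters, the exact test of edgeR, DESeq2 1.42.0, the replicate number as a block, each library left out in turn, a fold threshold of 1.2 and a GC and length correction.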

Additional observations from a re-analysis of the deposited data

How the results depend on the processing

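The count of 42 mitotic genes called higher ranged from 39 (upper-quartile scaling) to 45 (replicate block) and from 40 to 42 when single libraries were left out, and 28 had a rise of at least 1.2-fold. No fold change of the 51 genes changed sign in any fit. Smc4 was called lower throughout, but at a change of at least 1.2-fold 0 of the 51 mitotic genes and 0 of the 76 further mitotic genes were called lower, against 1 and 3. Leaving out single libraries gave 1 and 3 of these each time, and 37 to 45 further mitotic genes called higher. The median log2 fold change of the 51 genes was 0.29, 0.27 with upper-quartile scaling (0.2704), and 0.2739 to 0.3179 without single libraries. Calls of Cdc25b, Kif18b, Anln and Ttk were lost and those of Ndc80, Pttg1 and Ube2c gained in some fits, and the cause was not tested. Same-numbered libraries showed no sign of pairing, with correlations of -0.0178, -0.0335 and -0.0137, but 3 libraries per group cannot exclude it. The block gave a median of 0.2896, 45 further mitotic genes higher and 4613 instead of 4312 calls over all genes. With 3 libraries per group of at least 40070633 counts each, the smallest rise called among the 51 genes was that of Cdc25b (0.10 on the log2 scale).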
